A study of Mus musculus with 28 samples.

Results

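The comparison set CD8 T cells that had met antibody in culture and then antigen in a host against CD8 T cells taken straight from the antibody culture. The groups were taken from the sample titles. They hold 6 of the 28 arrays of the series, 3 of CD8 cells stimulated continuously for 5 days and 3 of CD8 cells stimulated for 2 days, and all 12393 genes with a usable probe set were compared. The time, the host, the sort and the day of sampling and of the arrays go together in these groups and cannot be told apart. The series followed how CD4 and CD8 T cells depend on continued antigen, and measured gene expression in sorted mouse T cells on Affymetrix Mouse 430A2 arrays, as log2 signal per probe set.

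All CD8 cells were OT1 T cell receptor transgenic on the C57BL/6N background and were first kept in culture with IL7 at 5 ng/ml, a cytokine that keeps resting T cells alive. For the continuous group, cells spent 2 days on a surface coated with anti-CD3 and anti-CD28 (10 µg/ml), which engage the T cell receptor and its costimulator, and then spent 3 days in hosts that expressed their antigen. They were taken from spleen and subcutaneous lymph nodes and sorted 2 times into lysis reagent. The labels name 2 kinds of antigen-expressing host, dtg-O and dtg-M, and do not say which received the CD8 cells. The stimulated group had the same 2 days on antibody and no host, and was sorted at the end of the culture. For the transient group, cells had the same culture and then 3 days in hosts without antigen, and for the unstimulated day 5 group, cells had 2 days without antibody and then 3 days in hosts without antigen. Continuous and stimulated CD4 cells were AND T cell receptor transgenic and had the same schedules. Each of these 6 groups has 3 arrays, which the series text calls independent biological replicates, and RNA was amplified before labelling.

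A T cell that meets antigen with costimulation grows, makes IL2 and its high-affinity receptor, divides and, in the CD8 lineage, arms itself with granzymes and perforin that kill target cells. Antibody on a plate gives this signal without a presenting cell. In an animal the signal comes from antigen-presenting cells, and the cells also receive chemokines, interferons and the blood-borne lipid S1P, and move through vessels and tissue.

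Both groups had the identity that their labels give. Cd8a, which encodes the alpha chain of the CD8 coreceptor, had log2 signals of 12.54, 12.76 and 12.58 on the continuous arrays and 10.52, 10.77 and 10.79 on the stimulated arrays. Cd4, the coreceptor of the other lineage, stood at 6.17, 6.41 and 6.39 on the continuous arrays and at 6.32, 6.04 and 6.44 on the stimulated arrays, near the median signal of an array (6.29 to 6.41 over the 18 arrays of the 6 groups). Markers of other cell types moved in both directions. The mean of 15 B cell markers was 6.67, 5.99 and 7.75 on the continuous arrays and 5.88, 5.78 and 5.68 on the stimulated arrays, and the mean of 17 myeloid markers was 7.30, 5.78 and 6.48 against 5.35, 5.39 and 5.24. Summed over each list on the linear scale and given as log2, the B cell markers came to 11.46 to 13.69 on the continuous arrays and 11.26 to 11.49 on the stimulated arrays, and the myeloid markers to 11.01 to 12.67 against 11.07 to 11.52. Of single markers, 2 of 15 B cell genes, 0 of 5 plasma cell genes and 1 of 17 myeloid genes were called higher, and 1, 1 and 0 lower. Dendritic cell markers ran the other way, with a mean of 5.99 to 6.25 on the continuous arrays and 6.69 to 6.81 on the stimulated arrays, a sum of 9.70 to 10.45 against 11.93 to 12.26, and 1 of 8 called higher and 3 lower. The mean of 5 red cell markers was 5.20 to 5.37 against 5.40 to 5.54. The third continuous array was highest in B cell and plasma cell markers. Jchain, which joins secreted antibodies, stood at 4.96, 5.58 and 10.94 on the continuous arrays and at 4.08, 4.29 and 4.30 on the stimulated arrays. The 3' minus 5' signal of beta-actin, a measure of RNA wear and of amplification, was 0.31 to 0.56 on the continuous arrays and 1.38 to 1.69 on the stimulated arrays, so that it moved with the comparison. The part of these markers and of RNA wear in the results below was not tested beyond a fit with the marker mean as a covariate, which called 4167 genes.

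A large share of genes differed between the groups. limma with Benjamini-Hochberg adjustment called 4386 of 12393 genes (35.4%) at an adjusted p below 0.05, of which 1877 (15.1%) were higher and 2509 (20.2%) lower in the continuous cells. The groups did not overlap in 6041 genes (48.7%), of which 4212 were called (34.0% of all genes). The change was at least 2-fold, which is 1 on the log2 scale, in 764 called genes that were higher and 718 that were lower. The median difference over all genes was -0.08 and the median SE 0.148. Each comparison with the continuous cells below uses these same 3 arrays, and each count of list members can be read against the shares just given. In RNA from sorted cells in bulk, fewer cells of a kind and less RNA per cell cannot be told apart.

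**Figure D1:**
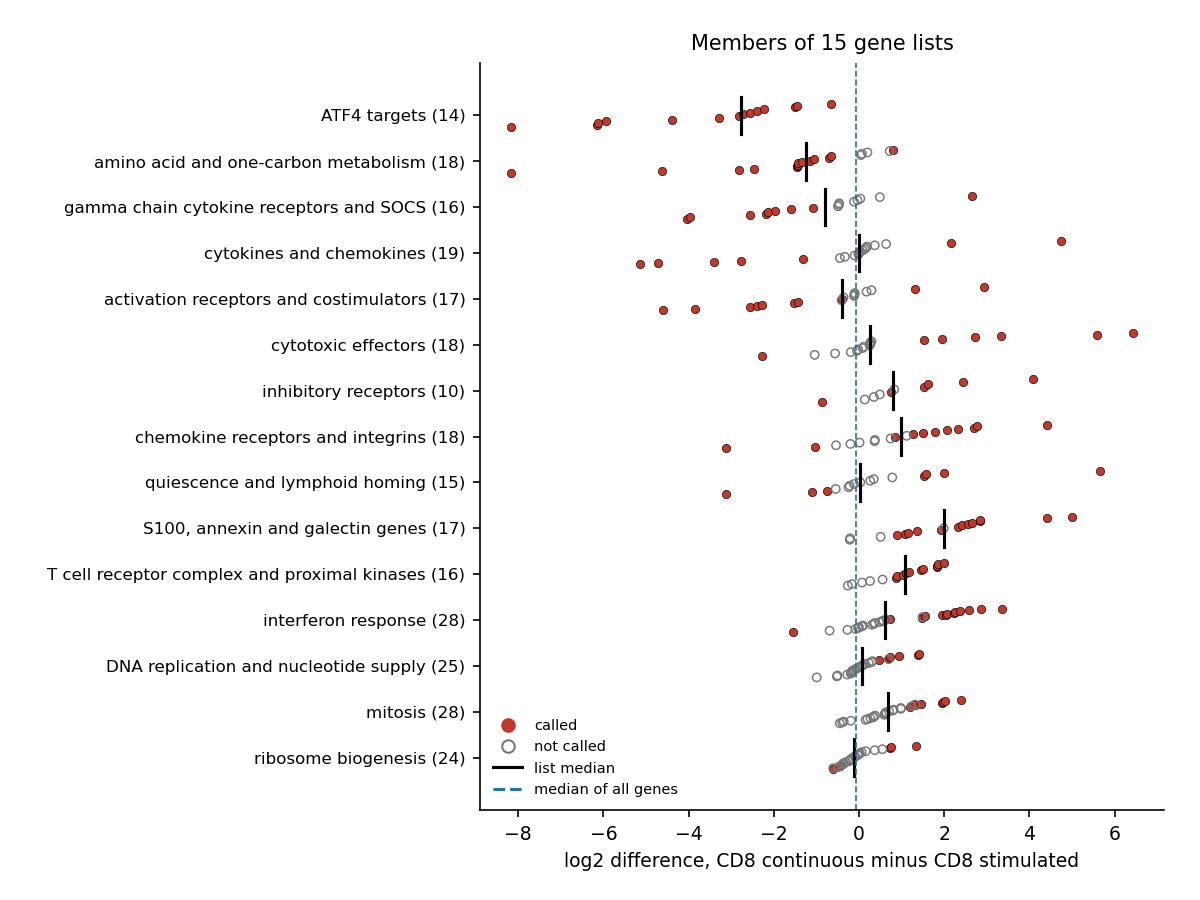
Log2 difference of continuous minus stimulated CD8 cells for each measured member of 15 gene lists, with the number of members in brackets. Filled points passed the test at an adjusted p below 0.05, the black bar is the median of the list, and the dashed line is the median of all genes (-0.08). The ATF4 targets lie wholly to the left, with a median of -2.77, and the S100, annexin and galectin genes mostly to the right, with a median of 1.99.

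The largest falls were in genes of the amino acid response. ATF4 is a transcription factor that cells translate when amino acids run short or proteins misfold, and it raises genes for amino acid synthesis and uptake along with stress regulators. All 14 of its measured targets fell in the continuous cells, with a median of -2.77 beside -0.08 over all genes and a background of 20.2% of genes lower. Cth, which encodes the enzyme that makes cysteine from cystathionine, had log2 signals of 4.10, 3.91 and 4.16 on the continuous arrays and 12.27, 12.50 and 11.90 on the stimulated arrays. It was the largest change in the comparison, -8.16 (SE 0.22, adjusted p = 3.23e-12), and the groups did not overlap. Gpt2, an alanine aminotransferase of mitochondria, had 4.18, 4.19 and 4.13 against 10.80, 10.25 and 9.92, and Trib3, a pseudokinase that restrains ATF4, had 6.45, 6.38 and 6.26 against 12.76, 12.40 and 12.29. They fell by 6.16 and 6.12, the next largest falls after Cth, and their groups did not overlap. Nupr1, a small stress-induced chromatin protein, fell by 5.93, Ddit3, the stress factor also called CHOP, by 3.29, and Asns, which makes asparagine, by 2.81.

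**Figure D2:**
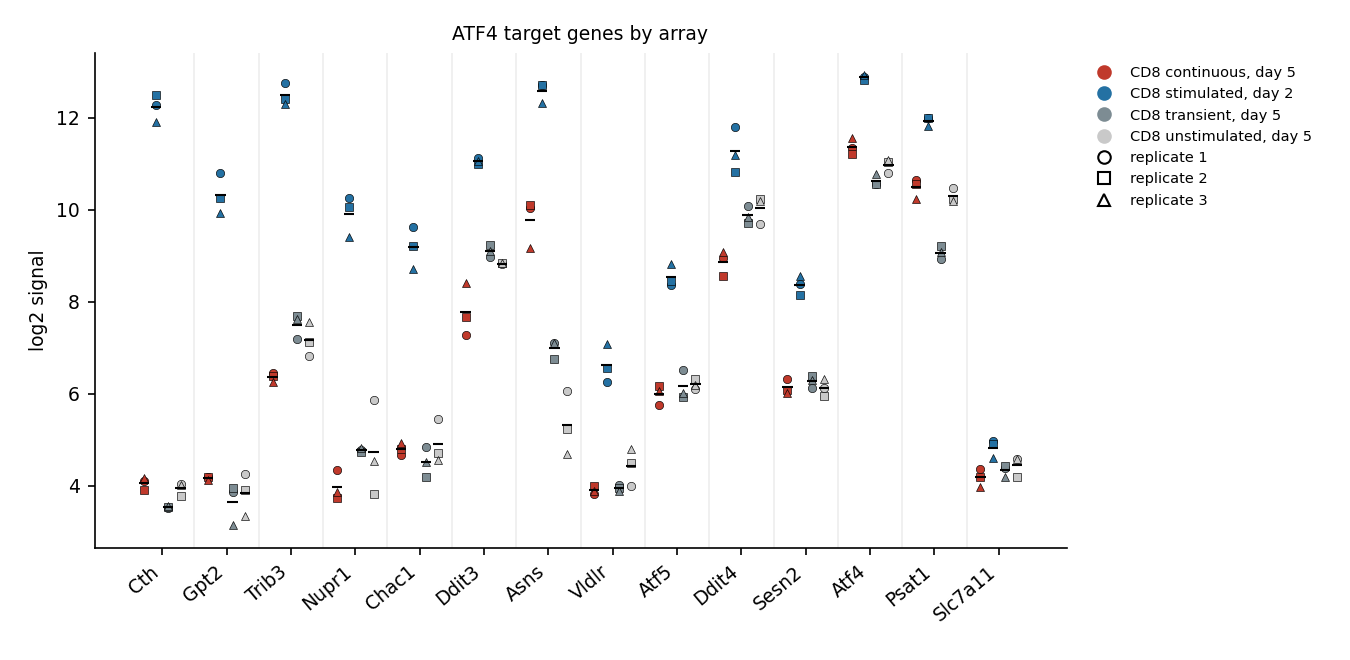
Log2 signal of the 14 measured ATF4 targets on each array of 4 CD8 groups, from left to right within a gene continuous, stimulated, transient and unstimulated day 5. The symbol shape gives the replicate number and the bar the mean of 3 arrays. The stimulated arrays are above the continuous arrays for all 14 genes, by the widest gap for Cth (4.10, 3.91 and 4.16 on the continuous arrays, 12.27, 12.50 and 11.90 on the stimulated arrays).

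The mean of the 14 genes was 6.54 to 6.59 on the continuous arrays, 10.04 to 10.30 on the stimulated arrays and 6.43 to 6.49 on the transient arrays, which were also from hosts. Against transient cells of the same day, 3 of the 14 were higher in continuous cells and 3 lower, in a comparison that called 27.0% of genes (1672 higher, 13.5%, and 1679 lower, 13.5%). Asns had 10.03, 10.11 and 9.16 on the continuous arrays, against 7.11, 6.75 and 7.10 on the transient arrays, a difference of 2.78 (adjusted p = 5.2e-05 by limma). Trib3 and Ddit3 were lower in continuous than in transient cells, by 1.13 and 1.33 log2 units. Asns thus stood between the cultured cells and the cells in hosts without antigen. Cth was at 3.51, 3.54 and 3.56 on the transient arrays, with no called difference (0.52, adjusted p = 0.1).

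The promoters of some of these genes hold the letters that ATF4 and its C/EBP partners bind. TGATGNAA, searched on both strands in the 250 bases before the start site, occurs upstream of 5 of the 13 ATF4 targets with a RefSeq promoter (Chac1, Nupr1, Vldlr, Asns and Slc7a11) and in 3.45% of all 32851 promoters in the table (2.79% of array genes). The list was made of ATF4 targets, so its share of matches is no result of these data. The windows of 4 of them are shown with the motif in capitals, 5' to 3' on the strand of the gene. They are from RefSeq on GRCm38.p6, at chr6:7693210-7693257 (Asns, minus strand), chr2:119351024-119351081 (Chac1, plus strand), chr7:126625548-126625605 (Nupr1, minus strand) and chr3:50443628-50443704 (Slc7a11, minus strand).
Asns: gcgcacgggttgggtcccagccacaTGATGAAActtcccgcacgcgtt
Chac1: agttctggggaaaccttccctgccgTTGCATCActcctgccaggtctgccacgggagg
Nupr1: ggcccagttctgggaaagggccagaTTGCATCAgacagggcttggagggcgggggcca
Slc7a11: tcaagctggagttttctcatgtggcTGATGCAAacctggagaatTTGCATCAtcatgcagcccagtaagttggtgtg
Counted from the start site, with -1 the base before it, the match begins at -23 in Asns, -193 in Chac1 and -110 in Nupr1, and at -66 and -47 in Slc7a11, whose 2 matches lie on opposite strands. Chac1, an enzyme that breaks down glutathione, fell by 4.39 (4.66, 4.79 and 4.92 on the continuous arrays, 9.63, 9.22 and 8.70 on the stimulated arrays). Slc7a11, the cystine carrier with 2 matches, had low signals in both groups and fell by 0.65. A match of letters is a description and shows no binding.

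Of the wider set of genes for amino acid synthesis, uptake and one-carbon metabolism, 13 of 18 were lower and 1 higher (median -1.24). Slc7a3, a carrier of arginine and lysine, had 5.93, 5.59 and 5.51 on the continuous arrays and 10.48, 10.61 and 9.82 on the stimulated arrays. Slc7a5, the leucine carrier that feeds mTORC1, had 10.34, 10.72 and 9.16 against 12.62, 12.43 and 12.55, and remained above the transient cells by 2.23. Mthfd1, which passes folate-bound carbon toward purines, was the member that rose, by 0.80 (SE 0.14). In the hypoxia list 7 of 14 were lower and 1 higher. Its largest falls were Adm, the vessel peptide adrenomedullin, at -2.77, Ddit4, an inhibitor of mTORC1 that is also an ATF4 target, at -2.40, and Ndrg1 at -2.23.

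Inhibitors and receptor chains of cytokine pathways, among them that of IL2, made up another group. IL2 binds its receptor, STAT5 enters the nucleus, and among the genes it raises are inhibitors of the same pathway. In a wider list of 16 cytokine receptor and feedback genes, which also holds Il6st and Socs3 of the IL6 family, 8 were lower and 1 higher (median -0.79). Socs2, a feedback inhibitor, had 4.90, 5.04 and 4.92 on the continuous arrays and 8.79, 8.50 and 9.69 on the stimulated arrays. Cish, another such inhibitor, had 8.28, 9.46 and 8.31 against 12.73, 12.35 and 12.84, a fall of 3.96 (SE 0.42, adjusted p = 3.89e-06). Il2ra, the high-affinity chain of the IL2 receptor, had 7.45, 7.87 and 6.89 against 9.77, 9.95 and 10.18. In all 3 genes the groups did not overlap. Stat5a fell by 2.19 and Socs3, induced by cytokines of the IL6 family, by 2.14, though the call for Socs3 was lost without the first continuous array or the first stimulated array. Il6st, the shared receptor chain of that IL6 family, rose by 2.66. Against transient cells, Il2ra was higher by 2.20, while Cish (0.62, adjusted p = 0.32) and Socs2 (0.13, adjusted p = 0.88) were not called. The stimulated cells came straight from culture with IL7, and the continuous cells had 3 days in hosts after that culture. The parts of IL2 and of the added IL7 in these changes were not tested.

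The STAT5 letters TTCNNNGAA, the same on both strands, occur in 8.3% of all promoters when the 250 bases before and the 50 after the start are searched. They occur in 3 of the 14 genes of this list with a promoter (Il7r, Cish and Socs3). Cish is shown because it holds 2 matches in its first 20 transcribed bases (GRCm38.p6, chr9:107296659-107296678, plus strand, from RefSeq), with both in capitals.
Cish: TTCCTGGAAagTTCTTGGAA

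Of 19 cytokine genes, 5 were lower and 2 higher, beside backgrounds of 20.2% and 15.1%. Csf2, which encodes the growth factor GM-CSF, had 5.16, 5.38 and 5.59 on the continuous arrays and 10.49, 10.59 and 10.45 on the stimulated arrays. Il3, a growth factor for blood progenitors, had 3.59, 3.61 and 3.70 against 8.36, 9.27 and 7.45, and Il2 itself 4.45, 5.61 and 5.77 against 8.49, 9.51 and 8.02. These 3 fell by 5.13, 4.73 and 3.40, and none of them differed from the transient cells by a called amount. Il23a, a subunit of IL23, was among the 10 largest falls at -5.48, and Lta, lymphotoxin alpha, fell by 2.78. Ifng, the main effector cytokine of CD8 cells, had 9.65, 12.13 and 10.24 on the continuous arrays and 10.19, 11.47 and 8.44 on the stimulated arrays. These groups overlapped (0.64, SE 0.94, adjusted p = 0.645), and so did those of Ccl4 (-0.33, adjusted p = 0.807). Both were far above the transient cells, Ifng by 4.51 and Ccl4, a chemokine of activated T cells, by 4.03.

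The 2 chemokine genes that rose were of different kinds. Ccl5, which attracts T cells and is stored by memory CD8 cells, had 10.76, 11.97 and 11.34 on the continuous arrays and 6.90, 6.56 and 6.37 on the stimulated arrays, a rise of 4.74 (SE 0.35, adjusted p = 1.44e-07). It was 1.19 lower than in transient cells, a call lost without the first continuous or the second transient array. Xcl1, which attracts cross-presenting dendritic cells, had 9.26, 10.75 and 10.39 against 7.42, 9.26 and 7.21, where the highest stimulated array and the lowest continuous array met. Xcl1 exceeded the transient cells by 3.58.

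**Figure D3:**
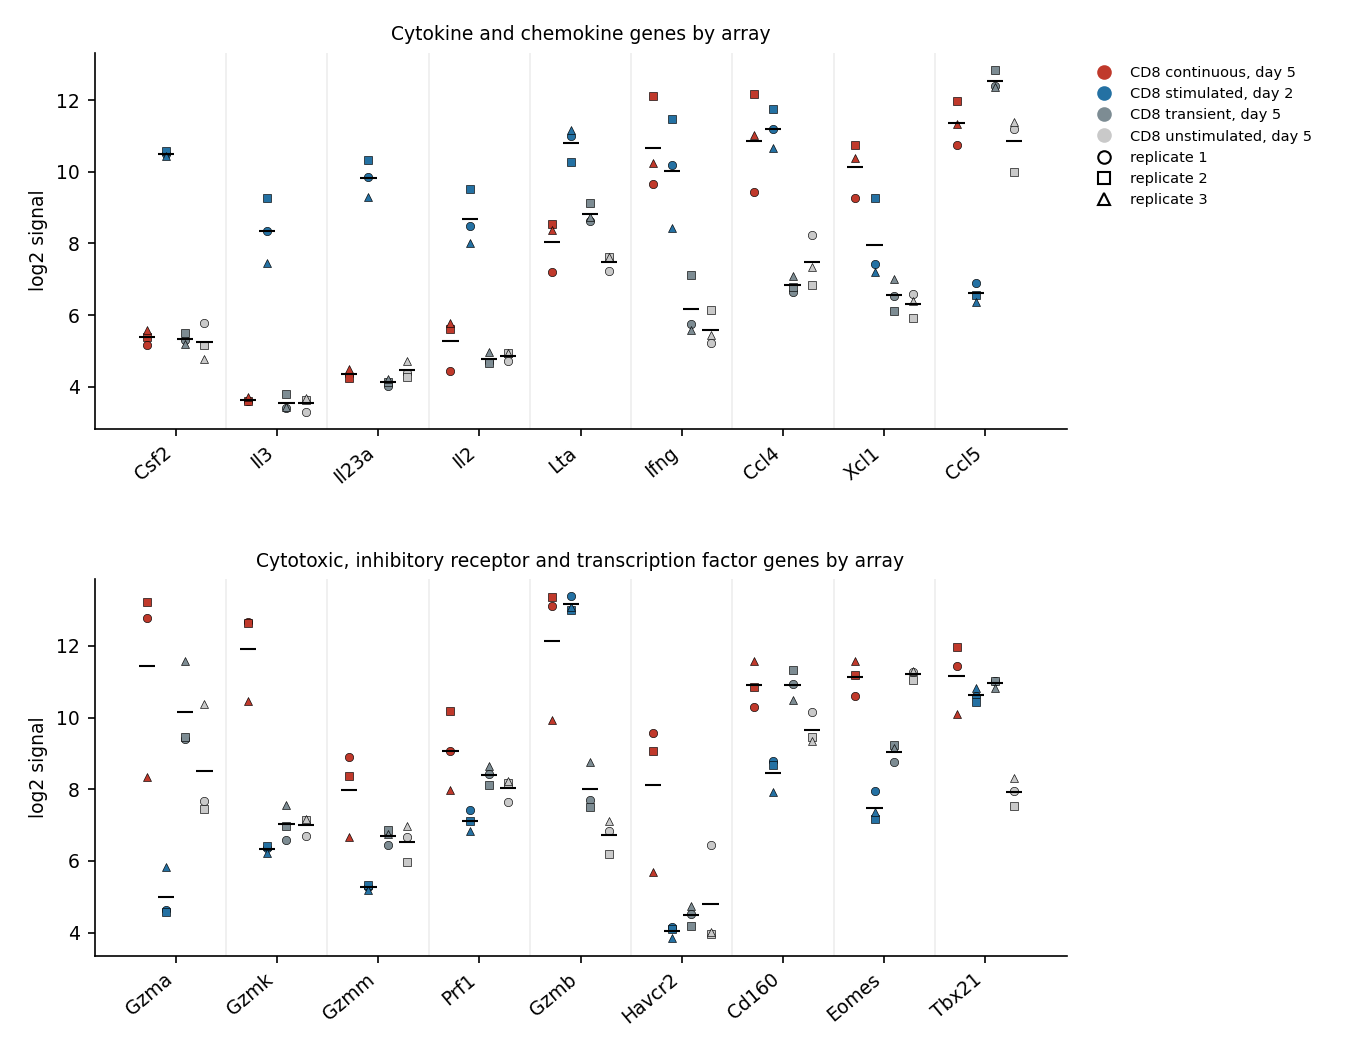
Log2 signal of 18 genes on each array of 4 CD8 groups, from left to right within a gene continuous, stimulated, transient and unstimulated day 5. The symbol shape gives the replicate number and the bar the mean of 3 arrays. The third continuous array (triangle) lies below the others in Gzma (8.33), Gzmb (9.92), Gzmk (10.46) and Havcr2 (5.69).

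Among 18 genes of the killing machinery, 6 rose and 1 fell. Gzma, granzyme A, had 12.78, 13.21 and 8.33 on the continuous arrays and 4.62, 4.57 and 5.83 on the stimulated arrays. Gzmk, granzyme K, had 12.67, 12.63 and 10.46 against 6.37, 6.43 and 6.22. The groups did not overlap, but the third continuous array was over 2 log2 units below the other two in each gene. Gzma rose by 6.43 (SE 1.08) with all arrays and by 7.98 without that array, and Gzmk by 5.58 (SE 0.42) and by 6.31. Gzmm, Ctsw and Nkg7, a granzyme, a granule protease and a granule membrane protein, rose by 2.72, 3.33 and 1.53, and Prf1, the pore former perforin, by 1.95 (9.06, 10.19 and 7.98 against 7.43, 7.11 and 6.83). Serpinb9, which shields the cell from its own granzyme B, fell by 2.28. In a list of 10 killer cell lectin-like receptors and their adaptors, 3 were called higher and none lower. These were Klrk1, which encodes NKG2D, by 1.56, Hcst, its adaptor DAP10, by 1.49, and Klrd1, which encodes CD94, by 1.37. Against transient cells none of the 10 was higher and 2 were lower (median -0.18). Hcst was lower by 2.12 and Klrd1 by 1.13, the latter a call lost without single arrays, and Klrk1 was not called (0.04). Of the 18 killing genes, 7 were higher than in transient cells and 1 lower (median 0.34). Ctsw was lower by 0.92, a call lost without single arrays, and Nkg7 was not called (0.02). NK cells share many of these genes. The summed level of 6 NK cell markers was 13.26 to 13.60 on the continuous arrays and 11.17 to 12.40 on the stimulated arrays. Of these 6 markers, 1 was called higher and none lower, with a median of 0.48. Their mean was 6.2 to 6.62 on the continuous arrays and 5.63 to 5.84 on the stimulated arrays, a smaller gap than that of the sum. The largest change among the 6 markers was 1.53, the value given above for Nkg7. This list and the killing genes may therefore share that gene, and the sum is no separate sign of NK cells. The part of NK cells in the result was not tested.

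For Gzmb, granzyme B, no difference was detected. It had 13.10, 13.35 and 9.92 on the continuous arrays and 13.38, 13.01 and 13.09 on the stimulated arrays, a difference of -1.04 (SE 0.95, adjusted p = 0.436) that became 0.06 without the third continuous array. On the transient arrays it stood at 7.71, 7.51 and 8.76, so that continuous cells exceeded them by 4.13. Gzmk was the largest difference between continuous and transient cells at 4.88, while Gzma, with 9.41, 9.45 and 11.59 on the transient arrays, was not called there (1.29, adjusted p = 0.44), but was called without the third continuous array or with array weights.

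Inhibitory receptors rose in 5 of 10 cases and fell in 1. Havcr2, which encodes TIM3, had 9.58, 9.08 and 5.69 on the continuous arrays and 4.17, 4.09 and 3.84 on the stimulated arrays, a rise of 4.09 (SE 0.81) and of 5.30 without the third array. Cd160, which restrains T cells through the ligand HVEM, had 10.29, 10.85 and 11.57 against 8.79, 8.67 and 7.92. Lair1, a collagen receptor, rose by 1.52, and Entpd1, the ectoenzyme CD39, by 1.61, a call lost without the first or the second continuous array. Pdcd1, which encodes PD-1, had 9.46, 9.92 and 8.38 against 9.21, 8.82 and 8.26 and was not called (0.49, adjusted p = 0.417), though it exceeded the transient cells by 2.53. Lag3 (0.75, adjusted p = 0.0477) and Ctla4 (-0.87, adjusted p = 0.0497) passed the threshold narrowly and lost the call without single arrays, and without the first continuous array Ctla4 was at -0.49 (adjusted p = 0.253).

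Of 17 transcription factors of effector and memory cells, 6 rose and 1 fell. Eomes, a T-box factor of memory and exhausted CD8 cells, had 10.61, 11.19 and 11.59 on the continuous arrays and 7.94, 7.16 and 7.37 on the stimulated arrays (3.64, SE 0.28, adjusted p = 1.76e-07). Tbx21, the T-box factor T-bet, had 11.43, 11.96 and 10.11 against 10.61, 10.43 and 10.81 with overlapping groups (0.55, adjusted p = 0.239), and was called higher only without the third continuous array or with array weights. Bcl6, a repressor of effector programmes, rose by 2.18. Bhlhe40, a factor that T cells need for GM-CSF, fell by 3.08 beside Csf2, yet stood 2.68 above the transient cells. Prdm1, which encodes BLIMP1, rose by 1.60 at an adjusted p of 0.0495, on arrays of 8.16, 7.63 and 5.52 against 5.68, 5.49 and 5.34, and lost the call without single arrays of either group.

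Of 12 genes that report receptor signalling, 3 were higher and 2 lower than in stimulated cells (median -0.10), and 7 higher and 1 lower than in transient cells (median 0.92). Nr4a1, an immediate reporter of receptor engagement, had 8.90, 10.62 and 10.14 on the continuous arrays and 11.35, 11.09 and 11.11 on the stimulated arrays, and 7.36, 6.70 and 7.39 on the transient arrays. It was 1.30 below the stimulated cells (adjusted p = 0.0315), a call lost without any one of 4 arrays and at -0.80 (adjusted p = 0.17) without the first continuous array, and 2.74 above the transient cells. Egr2, induced by the calcium branch, was not called against stimulated cells (0.71, adjusted p = 0.169), was called without the first continuous array (1.18, adjusted p = 0.0193), and exceeded transient cells by 2.26. Myc showed 9.11 on the first continuous array and 10.62 and 10.60 on the others, against 10.48, 10.50 and 10.46, with no call (-0.37, adjusted p = 0.59). Of 17 activation receptors and costimulators, 8 were lower and 2 higher. Tnfrsf4, which encodes OX40, had 9.24, 9.41 and 8.72 against 13.75, 13.77 and 13.63, Tnfsf11, the cytokine RANKL, fell by 3.85, and Tnfrsf18, the receptor GITR, by 2.40. Cd27 and Cd28, costimulators that resting T cells carry, were the 2 that rose, by 2.93 and 1.30.

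Genes of the receptor complex itself and its first kinases rose in 11 of 16 cases and fell in none (median 1.08). Lat, the adaptor on which the signal assembles, had 12.36, 12.38 and 12.24 on the continuous arrays and 10.29, 10.30 and 10.40 on the stimulated arrays (2.00, SE 0.11, adjusted p = 6.14e-09). Zap70 and Fyn, kinases of the first step, each rose by 1.83, and Cd3g and Cd247, the gamma and zeta chains that carry the signal inward, by 1.18 and 0.89. Cd8a and Cd8b1, the chains of the coreceptor, rose by 1.94 and 1.63. Dgka, a lipid kinase that dampens the signal, rose with them, by 3.30 (11.56, 11.73 and 12.37 against 9.16, 8.18 and 8.43). Of the 16 genes, none was higher and 5 were lower in continuous than in transient cells, with a median of -0.32.

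Trafficking genes changed in both directions. Klf2, the factor that keeps T cells in the circulation, had 11.34, 10.93 and 11.59 on the continuous arrays and 5.78, 5.42 and 5.65 on the stimulated arrays, a rise of 5.67 (SE 0.17, adjusted p = 7.29e-12) with no overlap. S1pr1, its target and the receptor that leads cells out of lymph nodes, had 8.92, 8.39 and 8.68 against 6.73, 6.35 and 6.92. Ccr7, the receptor that leads them in, went the other way, with 8.11, 8.56 and 9.70 against 12.12, 11.79 and 11.84. Klf3 and Lef1, factors of resting cells, rose by 1.52 and 1.57, and Txnip, which restrains glucose uptake, fell by 1.11. In the list of quiescence and lymphoid homing as a whole, 4 of 15 rose and 3 fell against stimulated cells (median 0.03), and 13 of 15 were lower than in transient cells (median -1.23). Il7r, the IL7 receptor, was one of these, with 7.64, 8.33 and 9.26 on the continuous arrays, 7.83, 8.97 and 8.78 on the stimulated arrays and 11.99, 12.07 and 12.15 on the transient arrays.

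Receptors for entry into tissue rose in 9 of 18 cases and fell in 2. Cxcr3, the receptor for chemokines that interferon induces, had 12.51, 12.16 and 12.49 on the continuous arrays and 8.65, 7.83 and 7.44 on the stimulated arrays (4.41, SE 0.30). The integrin chains Itga4 and Itgb7, which pair to bind the gut address molecule MAdCAM, rose by 2.76 and 2.71. Cxcr5, the receptor for B cell follicles, had 5.54, 7.02 and 8.27 against 4.78, 4.55 and 4.56 and lost its call without the third continuous array, the one with the most B cell marker signal. Ccr4 fell by 1.04 beside Ccr7. Against transient cells 3 of these 18 genes were higher and 6 lower (median -0.29). Cxcr3 was lower than in transient cells by 0.84 and Itgb7 by 0.72, and Itga4 was higher by 0.67. These calls were each lost without single arrays. The calcium-binding and membrane genes of the S100, annexin and galectin list rose in 13 of 17 cases and fell in none (median 1.99), led by S100a6 (4.99) and S100a4 (4.41), neither of which differed from transient cells by a called amount (-0.80 and -0.90).

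Division genes came next. Of 25 replication genes 6 were called higher and none lower (median 0.07), and of 28 mitosis genes 7 were called higher and none lower (median 0.67), against backgrounds of 15.1% higher and 20.2% lower. Ccnb2, a cyclin of mitosis, had 11.28, 10.96 and 10.52 on the continuous arrays and 9.20, 8.90 and 8.77 on the stimulated arrays. Plk1, a mitotic kinase, had 12.09, 11.43 and 9.93 against 9.51, 9.46 and 8.66. Mki67, the classical proliferation marker, had 12.31, 11.81 and 11.76 against 9.40, 11.24 and 11.29 and was not called (1.31, adjusted p = 0.114). Cdkn1a, the cell cycle inhibitor p21, had 7.59, 7.58 and 7.15 against 12.75, 12.44 and 12.83, a fall of 5.23 (SE 0.28). Against transient cells all 25 replication genes and all 28 mitosis genes were higher, with medians of 2.19 and 2.50. The third continuous array had the lowest mean of both lists among the continuous arrays. Without it, 6 replication genes and 10 mitosis genes were called higher.

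**Figure D4:**
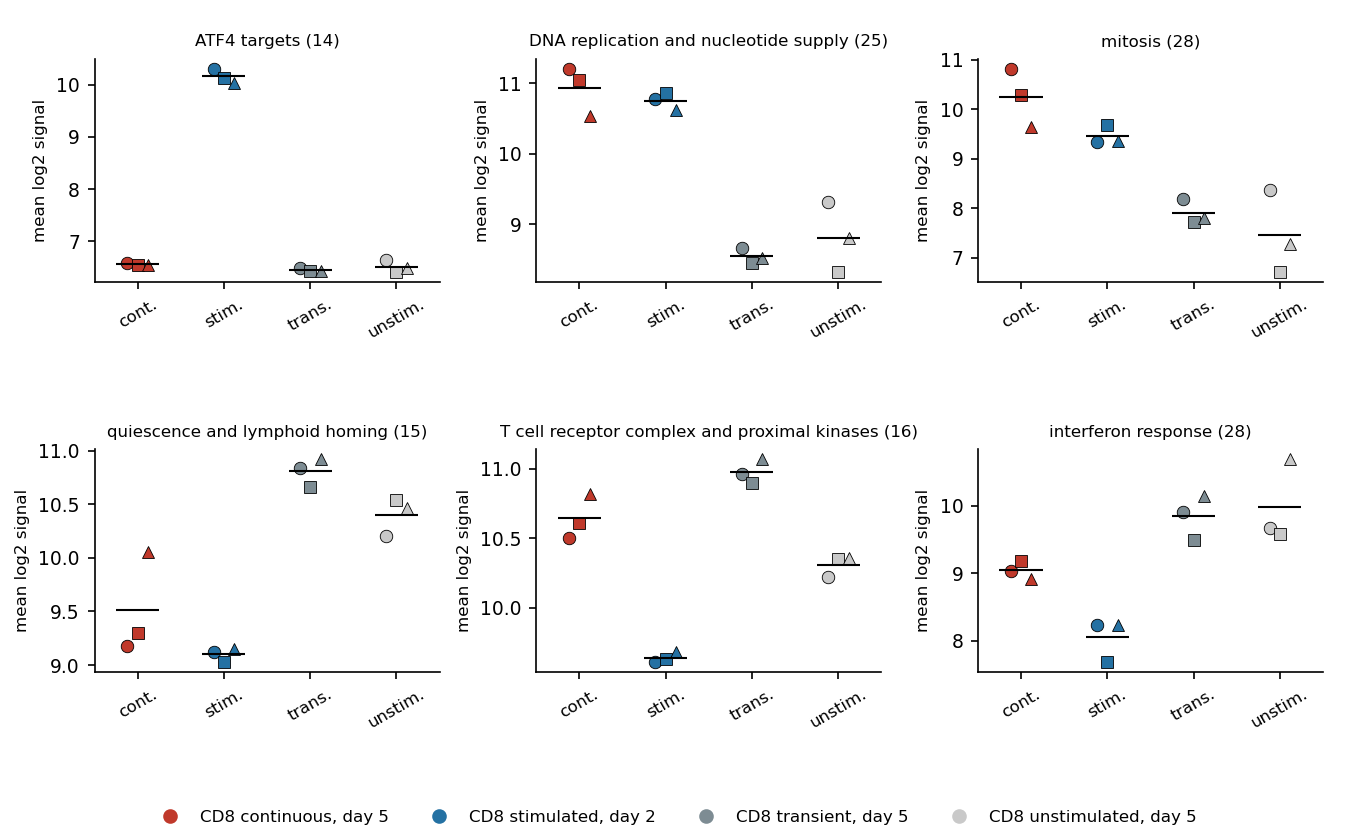
Mean log2 signal of the measured members of 6 gene lists on each array of 4 CD8 groups, from left to right continuous, stimulated, transient and unstimulated day 5. Circles, squares and triangles are replicates 1, 2 and 3, the bar is the mean of 3 arrays, and the vertical axes differ and do not start at 0. For replication the continuous arrays (10.53 to 11.20) overlap the stimulated arrays (10.62 to 10.86), as for mitosis (9.64 to 10.81 and 9.34 to 9.68). In both lists continuous replicates 1 and 2 lie above all stimulated arrays. Transient and unstimulated arrays lie below both groups there. For the ATF4 targets the continuous arrays (6.54 to 6.59) lie with the transient and unstimulated arrays, and the stimulated arrays are at 10.04 to 10.30.

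Interferon-induced genes rose in 12 of 28 cases and fell in 1 (median 0.61). Mx1, an antiviral GTPase, had 7.68, 7.29 and 7.81 on the continuous arrays and 4.28, 3.95 and 4.44 on the stimulated arrays, and Isg20, an antiviral exonuclease, had 8.67, 8.53 and 9.27 against 6.17, 5.92 and 5.82. Rsad2, known as viperin, rose by 2.58. Bst2, the tetherin that holds budding viruses, fell by 1.55. Against transient cells none of the 28 was higher and 4 were lower in continuous cells (median -0.61). Mx1, one of the 4, was 1.82 lower, a call lost without single arrays.

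Genes for protein breakdown and folding came next. Of 25 proteasome subunits 11 rose and 2 fell (median 0.30), with Psmc1, an ATPase of the proteasome cap, at 1.38. In the unfolded protein response, Creld2 (1.23), Hsp90b1 (1.75) and Calr (0.97) of the endoplasmic reticulum rose while Ddit3 and Herpud1 (-0.77) fell, 7 rising and 3 falling of 18. Hspa1a and Hspa1b, inducible HSP70 genes, showed 9.38, 10.84 and 13.03 and 11.03, 11.80 and 13.01 on the continuous arrays, and 5.89, 6.27 and 5.62 and 7.71, 8.76 and 6.98 on the stimulated arrays. Both calls (5.16 and 4.13) were lost without the third continuous array, at 4.18 and 3.60, and without other single arrays. The 15 chaperones as a whole had 6 higher and none lower with all arrays, and 3 higher and 1 lower without that array. Of the glycolysis genes 4 of 14 rose and 2 fell: Pkm, the last enzyme of the path, rose by 1.29 and Slc2a1, the main glucose carrier, fell by 1.02. Sterol genes (4 higher and 2 lower of 21), oxidative phosphorylation (9 and 1 of 24), ribosomal proteins (2 and 2 of 20) and feedback phosphatases and anergy genes (4 and 3 of 16) had medians of 0.12, 0.12, -0.03 and -0.05.

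Several of the largest changes lay outside the lists. Ctla2b and Ctla2a, which encode inhibitors of cathepsin proteases found in activated T cells, had 11.26, 10.59 and 11.13 and 10.51, 10.49 and 10.95 on the continuous arrays, and 4.51, 4.48 and 4.09 and 5.84, 5.79 and 4.96 on the stimulated arrays. Ctla2b was the largest rise of the comparison, 6.64 (SE 0.72, adjusted p = 4.69e-06), and Ctla2a rose by 5.12. Neither was called against transient cells (0.17 and -0.45). Ramp3, which makes a calcitonin-family receptor respond to adrenomedullin, had 5.36, 5.26 and 6.10 against 11.35, 11.39 and 11.00, a fall of 5.67. H2-Aa, a class II chain of antigen-presenting cells and one of the B cell markers counted above, had 8.99, 6.68 and 10.61 against 4.70, 4.37 and 3.90. Its rise of 4.44 (adjusted p = 0.0454) was among the 10 largest and lost its call without single arrays. Ankrd33b, an ankyrin repeat gene, fell by 4.67.

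In the BCL2 family 5 of 11 fell and 2 rose. The survival factors Bcl2l1 and Bcl2 fell by 1.82 and 1.09, as did Bbc3, the death inducer PUMA, by 2.02, while Bcl2l11, the death inducer BIM, rose by 1.65 and Bid by 1.00. Of 17 immediate early genes 8 fell and 2 rose (median -0.97). Atf3, which ATF4 and stress kinases induce, had 4.94, 5.36 and 6.23 on the continuous arrays and 10.13, 9.71 and 10.08 on the stimulated arrays, and Junb fell by 1.96. Fosb, an AP-1 subunit, differed between the continuous arrays (6.30, 8.57 and 10.83, against 5.79, 5.49 and 5.50), and its rise of 2.98 was 1.84 and no longer called without the third of them. Zfp36, which destroys cytokine mRNA, rose by 2.53 (9.61, 9.84 and 10.75 against 7.68, 7.40 and 7.54).

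The same step from culture to an antigen-bearing host was measured in CD4 cells, and the difference between the lineages in this step was tested. Among 12393 genes, 923 (7.45%) differed, of which 612 (4.94%) were higher in the CD8 step and 311 (2.51%) lower. The lineages also differ in receptor, antigen and the host that shows it, which cannot be told apart. Among ribosome biogenesis genes 14 of 24 differed, all toward a higher CD8 value (median 1.15). In CD8 cells 3 rose and 2 fell, and in CD4 cells 1 rose and 20 fell. The list medians were -0.13 in CD8 cells and -1.26 in CD4 cells, beside -0.08 and -0.105 over all genes. Every called gene also has an unadjusted p below 0.05 by limma, which 5515 of 12393 genes had in CD8 cells and 6134 in CD4 cells. These counts hold both directions and are upper limits on the calls in each step. The share called lower in CD4 cells is not given here. Nop56, a core protein of the particles that modify ribosomal RNA, fell by 0.62 in CD8 cells and by 1.90 in CD4 cells, a difference of 1.28 (adjusted p = 0.0018). Amino acid genes differed the same way in 7 of 18 cases, among them Asns, which fell by 2.81 in CD8 cells and by 5.07 in CD4 cells (difference 2.26, adjusted p = 0.014). Of the ATF4 targets, 2 differed each way. For Cth, which fell by 8.16 in CD8 cells and 8.43 in CD4 cells, no difference was called (0.27, adjusted p = 0.7).

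**Figure D5:**
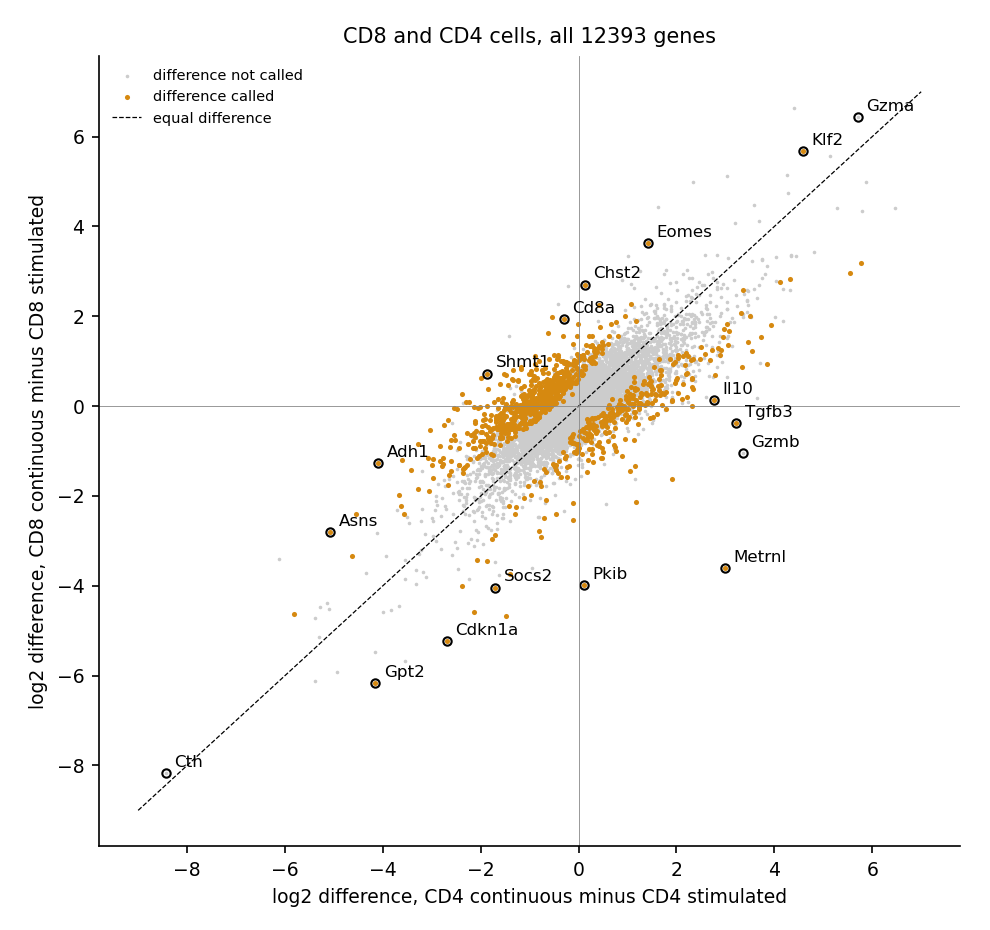
Log2 difference of continuous minus stimulated cells in CD8 cells (vertical axis) and CD4 cells (horizontal axis) for 12393 genes, with the line of equal difference. Orange points are the 923 genes for which the difference between both steps was called. Metrnl lies far below the line (-3.60 in CD8 cells and 2.99 in CD4 cells) and Cth lies on it.

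Metrnl, which encodes a secreted protein of muscle and immune cells, had the largest such difference, -6.58 (adjusted p = 8.2e-05). It had 5.82, 5.82 and 5.34 on the continuous arrays and 10.07, 8.56 and 9.14 on the stimulated arrays of CD8 cells, a fall of 3.60, and rose by 2.99 in CD4 cells. Pkib, an inhibitor of protein kinase A, fell by 3.98 in CD8 cells and did not change by a called amount in CD4 cells (0.12). Tgfb3 and Il10, cytokines that restrain immunity, rose in CD4 cells, by 3.22 and 2.76, and were not called in CD8 cells (-0.38 and 0.13). Eomes rose by 3.64 in CD8 cells and by 1.41 in CD4 cells (difference 2.22, adjusted p = 0.0033), and Klf2 by 5.67 and 4.58 (difference 1.09, adjusted p = 0.013). S1pr1 ran opposite to Klf2, with rises of 2.00 in CD8 cells and 3.51 in CD4 cells (difference -1.51, adjusted p = 0.0085). Cdkn1a fell by 5.23 in CD8 cells and by 2.70 in CD4 cells (difference -2.54). Shmt1, an enzyme of serine and folate exchange, had 10.60, 10.92 and 10.61 on the continuous arrays and 9.99, 10.33 and 9.66 on the stimulated arrays of CD8 cells. Its CD8 change was not called in the main fit (0.72), and it fell by 1.87 in CD4 cells (difference 2.59). Top1mt, the topoisomerase of mitochondrial DNA, differed by 2.63 in the same direction, and its CD8 change was not called either (0.63).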

How the data were processed

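The values are the authors' deposited log2 signals of 22690 probe sets on 28 Affymetrix arrays, made with RMA per the submitters' processing notes, whose version is not given in the sources used here. RMA corrects background, normalizes between arrays and summarises probes, so a shift shared by most genes is largely removed, and low signals are compressed. The deposited arrays do not share 1 distribution: replicate 3 of the CD4 and of the CD8 unstimulated day 2 group, neither in the fit below, had medians of 4.83 and 4.97, against 6.29 to 6.41 for the 18 arrays fitted. From the 20380 probe sets with 1 gene symbol, the one with the highest mean over all arrays was taken for each of 12393 genes. limma 3.58.1 (R 4.3.3) was fitted to 18 arrays in 6 groups of 3, with 12 residual degrees of freedom and Benjamini-Hochberg adjustment over all genes; genes were called at an adjusted p below 0.05. Adjusted p-values are from this fit and measure the spread between samples that the series calls biological replicates; the number of arrays limits their precision. Tested on simulated data for the continuous minus stimulated comparison over 12393 genes, the fit called 87% of changes of 1 log2 unit and 99% of changes of 3, with 11 false calls. For the CD8 minus CD4 difference it called 64% and 98%, with 3 false calls, so a difference of 1 log2 unit can be missed there. Each simulation changed 100 genes by each size, gave every other gene 1 mean in all groups, and drew normal noise independently for each array. In the data 35.4% of genes were called in the first comparison, and arrays can share deviations. The simulated rates therefore need not hold for the real comparisons.

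The comparison and the 41 gene lists were chosen with earlier results of these data known. Genes were named as the 10 largest rises and falls among called genes without overlap, up to 4 called members of each list per direction, a set of T cell genes, and the largest differences from CD4 cells (8 a direction) and transient cells (6 a direction). Of these, those that add to the account are given. Chac1, Vldlr, Slc7a11, Jchain, Nkg7, Cd3g and Cd247 lie outside this rule and were named after their values were seen. Genes not on the array were not analysed here. Alternatives were another normalization, probe set choice, low-signal filter, variance setting, array weights, other sets of arrays, stricter thresholds, a replicate block, each array left out and, added after seeing the data, the mean of B cell, plasma cell and myeloid markers as a covariate.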

Additional observations from a re-analysis of the deposited data

Results flagged for a closer look

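For 29 genes of those named, the continuous minus stimulated change differed between CD8 and CD4 cells by limma's test of the difference itself. The values are log2 differences, CD8 step minus CD4 step.

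Higher in the CD8 step were Cd8a (2.23) and Cd8b1 (2.25), the coreceptor that CD4 cells lack, Eomes (2.22), Klf2 (1.09), the kinase Zap70 (1.17), the adaptor Lat (1.05), the killer receptor Klrk1 (1.35) and the death inducer Bid (1.82). Of metabolic genes, Asns differed by 2.26, Shmt1 by 2.59, Mthfd1 by 1.56, Slc7a3 by 1.20 and Top1mt by 2.63, and the ribosome assembly gene Nop56 by 1.28.

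Lower in the CD8 step were Metrnl (-6.58), Pkib (-4.10), Tgfb3 (-3.60), Ankrd33b (-3.19), Il10 (-2.63), Cdkn1a (-2.54), Gpt2 (-2.01), Ddit4 (-1.93), Adm (-1.96) and S1pr1 (-1.51). So were the feedback inhibitors Socs3 (-3.31) and Socs2 (-2.33), the receptors Ctla4 (-1.58) and Klrd1 (-1.69), and the integrin chain Itga4 (-1.36). The calls for Adm, Ctla4, Itga4, Klrd1, Klrk1, Slc7a3, Socs2, Socs3 and Zap70 were each lost when one or more single arrays were left out.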

How the results depend on the processing

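Against 4386 genes called between continuous and stimulated CD8 cells, a fit over all 28 arrays called 580, a 2-fold minimum left 1482, and all probe sets gave 7079. Leaving out single arrays gave 3656 to 3957. For the CD8 minus CD4 difference, 923 genes became 3 with all 28 arrays, 2421 with array weights, 307 at an adjusted p below 0.01, 485 with the 2-fold minimum and 1443 with all probe sets, and 506 to 1308 without single arrays. For continuous against transient cells, 3351 became 360 with all 28 arrays, 2158 at an adjusted p below 0.01, 1083 with the 2-fold minimum and 5411 with all probe sets, and 2348 to 3515 without single arrays. Same-numbered continuous and stimulated CD8 arrays correlated at 0.06, 0.07 and 0.18 in their deviations from group means. Differently numbered ones correlated at -0.18 to 0.12. For continuous and transient arrays the same-numbered values were 0.17, 0.22 and 0.02, and the others -0.24 to 0.01. Whether the numbers mark arrays handled together cannot be told from these values. With the replicate as a block, 3484 genes were called in the first comparison and 593 in the CD8 minus CD4 difference. Between continuous and transient cells 3109 were called with the block. With the mean of a gene's probe sets in place of 1 probe set, 11 called genes between continuous and stimulated cells and 2 between continuous and transient cells were called in the opposite direction, none of them named here; under the other alternatives fitted by gene, none was.

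Of the 109 named genes called between continuous and stimulated cells, 70 kept the call under every alternative other than a stricter threshold. Of the rest, 26 lost it only in the fit over all 28 arrays, and 13 in another. For the CD8 minus CD4 difference these counts were 29, 3, 17 and 9. The cause of these losses was not tested. Named genes were picked largely for large or called changes, so these counts do not stand for all genes. Over all genes, the fit over all 28 arrays kept 580 of the 4386 calls between continuous and stimulated cells. Signals near the lower quartile of an array (4.59 to 4.69 on the 6 arrays) may be background, so large changes against them can be understated.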

Other observations

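The largest differences between continuous and transient CD8 cells, which share day 5 and differ in the antigen of the host, included genes not described above. Lrr1, a part of a ubiquitin ligase that takes the replication machinery off DNA, had log2 signals of 10.74, 10.35 and 9.60 on the continuous arrays and 6.50, 5.53 and 5.83 on the transient arrays, a difference of 4.27. Marcksl1, which binds calmodulin and actin, had 10.90, 11.09 and 10.36 against 7.33, 5.68 and 6.65, a difference of 4.23. Neither was called between continuous and stimulated cells (-0.63 and -0.44). Il6ra, the IL6 receptor, had 6.35, 6.82 and 7.89 on the continuous arrays and 10.75, 9.90 and 10.32 on the transient arrays, a difference of -3.30. Igfbp4, which binds insulin-like growth factors, differed from transient cells by -3.24 and from stimulated cells by -2.47. Rflnb, which regulates filamin, and St6gal1, which adds sialic acid to surface proteins, differed from transient cells by -3.80 and -3.24, and in both genes continuous replicate 3 (9.28 and 12.34) stood above replicates 1 and 2 (7.37 and 7.00 for Rflnb, 8.14 and 9.11 for St6gal1).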
